A study of Mus musculus with 17 samples.

Results

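The 10 genes described here are Ccn1, Ccn2, Thbs1, Rhob, Tgfb1i1, Cald1, Vim, Emp1, Anxa1 and Klf6, taken by name from the 55416 genes counted in every library. They were picked because they had been seen to be higher after Gnl3 siRNA in these same libraries, so their values after that siRNA describe the choice and carry no test. The tests given below use the other measurements: the Nmd3 siRNA, and the ratio of endoplasmic reticulum (ER) to whole-cell RNA under scramble and Nmd3 siRNA. Of these, only the ratio under Nmd3 siRNA compares no scramble library, and the scramble libraries also entered the choice. All cells were of 1 mouse embryonic stem cell line, Rpl31-FTA E14Tg2a.4, whose Rpl31, a protein of the large ribosomal subunit, is fused to a FLAG-TEV-AviTag. Cells were kept in serum and leukemia inhibitory factor and received scramble siRNA (the control), Nmd3 siRNA or Gnl3 siRNA. Nmd3 is an adaptor for nuclear export of the large ribosomal subunit, and Gnl3 (nucleostemin) is a nucleolar GTP-binding protein. Ribosomes at the ER were marked by ALIBi, a proximity biotinylation system, the marked ribosomes were affinity purified from lysates that held cycloheximide, which stalls translating ribosomes, and polyA RNA was sequenced from them and from the lysate they came from. The libraries of ER ribosome-bound RNA were replicates 2 and 3 of scramble siRNA and replicates 1 to 3 of each knockdown. The whole-cell libraries were replicates 1 to 3 of each siRNA, and the submitters' labels mark whole-cell replicate 2 of Nmd3 siRNA and whole-cell replicate 3 of Gnl3 siRNA as outliers on principal component analysis that were left out. Those 2 libraries were left out here too, so 15 of 17 libraries enter the results unless stated otherwise. The labels call the replicates biological and do not say more about how the cultures were separated.

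The genes are commonly cited as outputs of 2 transcription routes that respond to cell shape and adhesion. In the Hippo route, the coactivators YAP and TAZ enter the nucleus when the upstream kinases are inactive and bind TEAD factors at target genes such as Ccn1 and Ccn2. In the other route, the assembly of actin filaments frees the coactivator MRTF to bind serum response factor (SRF) at genes for actin-binding and adhesion proteins, and SRF with its ternary complex partners also drives immediate-early genes. AP-1, formed by Fos and Jun proteins, often acts at the same genes.

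Promoter sequence was looked at because the genes were grouped by these routes. The RefSeq promoter table (GRCm38.p6) held 7 of the 10 genes, with 9 start sites between them, and the 250 bases before each start were searched on both strands. The TEAD motif, GGAATG on either strand, was present before 3 of the 9 starts, those of Ccn1, Cald1 and Anxa1, and before 12.6% of all 32851 starts in the table. The AP-1 motif TGANTCA was present before 2 of the 9, at Cald1 and Emp1, against 6.75% of all starts. The SRF motif, the CArG box, was present before 0 of the 9 and 1.47% of all. Matches are descriptions of letters, not of binding, and no match says only that the letters are not in this window. The promoters of Ccn1, Anxa1 and Emp1 are printed 5′ to 3′ on the gene's strand because they hold the 2 kinds of motif found and belong to genes on which the results below turn. Capitals mark the TEAD motif, read on the other strand, in Ccn1 (chr3:145649986-145650235, minus strand, 103 to 98 bases before the start) and Anxa1 (chr19:20390672-20390921, minus strand, 236 to 231 bases before the start), and the AP-1 motif in the upstream start of Emp1 (chr6:135362681-135362930, plus strand, 145 to 139 and 25 to 19 bases before the start).
Ccn1: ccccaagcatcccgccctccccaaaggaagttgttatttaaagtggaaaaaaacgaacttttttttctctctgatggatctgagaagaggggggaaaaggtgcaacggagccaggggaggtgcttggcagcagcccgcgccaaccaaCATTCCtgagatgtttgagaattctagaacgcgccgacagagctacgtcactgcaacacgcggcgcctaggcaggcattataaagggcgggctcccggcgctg
Anxa1: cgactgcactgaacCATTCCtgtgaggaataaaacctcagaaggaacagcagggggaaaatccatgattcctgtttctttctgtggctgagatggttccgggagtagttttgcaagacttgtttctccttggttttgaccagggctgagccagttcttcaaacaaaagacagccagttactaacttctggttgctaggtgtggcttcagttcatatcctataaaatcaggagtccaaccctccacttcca
Emp1: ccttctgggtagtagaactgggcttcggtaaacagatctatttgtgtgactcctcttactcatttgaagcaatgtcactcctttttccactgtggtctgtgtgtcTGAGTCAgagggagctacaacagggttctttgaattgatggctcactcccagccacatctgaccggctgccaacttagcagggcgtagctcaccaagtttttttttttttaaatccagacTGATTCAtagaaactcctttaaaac

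The 15 libraries held 15.2 to 29.9 M gene counts, and the 10 genes had from 71 counts (the lowest library of Anxa1) to 9794 counts (the highest of Vim). Levels are CPM, the count of a gene per M gene counts of its library. Each siRNA lowered its target in every library that received it. Gnl3 was at 31.6, 26.9 and 29.7 CPM in the Gnl3 siRNA ER libraries against 170 and 177 CPM in scramble, and at 70.2 and 54.2 CPM against 256 to 272 CPM in whole-cell RNA. Nmd3 was at 24.1 to 25.2 CPM in the Nmd3 siRNA ER libraries against 120.0 and 124 CPM, and at 43.7 and 43.2 CPM against 150.2 to 154 CPM in whole-cell RNA. Gnl3 stood apart in 1 Nmd3 siRNA ER library, replicate 2, at 263 CPM against 164 and 180 CPM in replicates 1 and 3. Gnl3 shares exon sequence with Pbrm1 on the opposite strand. Because the strand setting of the counting is not given, counts of Pbrm1 cannot be set apart from those of Gnl3. Stem cell markers were high in all 15 libraries, with Pou5f1 between 1176 and 1654 CPM and Nanog between 431 and 653 CPM. In bulk RNA, fewer cells that express a gene and less of its RNA per cell cannot be told apart.

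The secreted matricellular proteins come first. Ccn1 (CYR61) binds integrins and heparan sulfate. On ER ribosomes Ccn1 was at 43.2 and 47.1 CPM with scramble siRNA, 54.2, 50.7 and 52.8 CPM with Nmd3 siRNA, and 64.0, 65.7 and 63.7 CPM with Gnl3 siRNA. In whole-cell RNA it was at 29.2, 29.2 and 32.4 CPM with scramble, 37.5 and 40.0 CPM with Nmd3 siRNA, and 50.3 and 40.0 CPM with Gnl3 siRNA. On the ER the 3 groups did not overlap and stood in the order scramble, Nmd3, Gnl3, while in whole-cell RNA the lower Gnl3 siRNA library lay among the Nmd3 siRNA libraries. Ccn2 (CTGF), of the same family, was at 68.2 and 67.6 CPM on scramble ER ribosomes, 77.7, 71.3 and 78.8 CPM after Nmd3 siRNA and 100.2, 101.7 and 92.6 CPM after Gnl3 siRNA. Its whole-cell levels were 41.3, 41.4 and 43.7 CPM, then 45.5 and 51.9 CPM, then 59.2 and 65.4 CPM in the same order of siRNAs. No Ccn2 group overlapped another in either fraction. Ccn2 shares exon sequence with Gm15270 on the opposite strand, and Thbs1 with Gm29233. The strand setting of the counting is not given in the sources used here, so counts of these partners cannot be set apart. Thbs1 (thrombospondin), which activates latent TGF-beta, was at 9.55 and 12.8 CPM on scramble ER ribosomes, 10.2, 11.01 and 10.9 CPM after Nmd3 siRNA and 16.9, 15.2 and 15.7 CPM after Gnl3 siRNA. In whole-cell RNA Thbs1 was at 12.4, 10.2 and 12.7 CPM with scramble, 11.6 and 12.0 CPM with Nmd3 siRNA and 17.6 and 16.3 CPM with Gnl3 siRNA. For Thbs1 the Nmd3 siRNA libraries lay within the scramble range in both fractions, and all Gnl3 siRNA libraries lay above both.

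Emp1 is a tetraspan membrane protein of the family of the myelin protein Pmp22. It was at 26.1 and 27.3 CPM on scramble ER ribosomes, 34.7, 31.4 and 36.4 CPM after Nmd3 siRNA and 41.0, 44.7 and 45.5 CPM after Gnl3 siRNA. In whole-cell RNA the same groups held 14.3, 13.7 and 15.9 CPM, then 15.1 and 15.2 CPM, then 16.6 and 18.6 CPM. The ER groups were well apart, whereas in whole-cell RNA the Nmd3 siRNA libraries lay inside the scramble range and the Gnl3 siRNA libraries just above it. Anxa1, a protein that binds membrane phospholipids in the presence of calcium, was the gene with the fewest counts. It was at 4.96 and 4.92 CPM on scramble ER ribosomes, 7.09, 5.56 and 5.97 CPM after Nmd3 siRNA and 11.6, 8.76 and 10.2 CPM after Gnl3 siRNA. Its whole-cell levels were 4.45, 5.999 and 6.11 CPM, then 6.31 and 6.71 CPM, then 10.5 and 10.0 CPM. The Anxa1 groups did not overlap in either fraction, although the Nmd3 siRNA libraries were within 1 CPM of the highest scramble library in whole-cell RNA.

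The actin-linked genes were Rhob, Tgfb1i1 and Cald1. Rhob, a small GTPase that acts on actin and endosomes, was at 47.4 and 47.6 CPM on scramble ER ribosomes, 55.6, 52.8 and 59.1 CPM after Nmd3 siRNA and 79.5, 71.7 and 79.3 CPM after Gnl3 siRNA. In whole-cell RNA it was at 38.8, 37.3 and 42.1 CPM, then 49.2 and 45.4 CPM, then 58.2 and 54.3 CPM. No Rhob group overlapped another in either fraction. Tgfb1i1 (Hic-5), an adaptor of focal adhesions related to paxillin, was at 7.82 and 7.56 CPM on scramble ER ribosomes, 10.9, 9.83 and 8.16 CPM after Nmd3 siRNA and 13.1, 11.1 and 13.1 CPM after Gnl3 siRNA. In whole-cell RNA Tgfb1i1 was at 6.46, 5.94 and 6.68 CPM with scramble, 5.43 and 6.26 CPM with Nmd3 siRNA, and 9.41 and 10.1 CPM with Gnl3 siRNA. The Nmd3 siRNA libraries of Tgfb1i1 were thus above scramble on the ER and not in whole-cell RNA. Cald1 (caldesmon), which binds actin and tropomyosin, was at 34.2 and 31.9 CPM on scramble ER ribosomes, 38.0, 30.8 and 40.3 CPM after Nmd3 siRNA and 44.0, 42.6 and 41.7 CPM after Gnl3 siRNA. Its whole-cell levels were 39.4, 45.5 and 45.9 CPM, then 53.9 and 48.7 CPM, then 54.9 and 56.9 CPM. The Cald1 groups of Nmd3 and scramble siRNA overlapped on the ER through Nmd3 replicate 2.

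Vim (vimentin), the intermediate filament protein of mesenchymal cells, was at 246 and 258 CPM on scramble ER ribosomes, 298, 300.1 and 300.4 CPM after Nmd3 siRNA and 339, 328 and 318 CPM after Gnl3 siRNA. In whole-cell RNA it was at 221, 209.9 and 212 CPM, then 251 and 233 CPM, then 266 and 261 CPM. No Vim group overlapped another in either fraction. Klf6, a zinc finger transcription factor that is induced early after serum or injury, was at 61.7 and 63.2 CPM on scramble ER ribosomes, 70.0, 64.7 and 77.5 CPM after Nmd3 siRNA and 91.7, 91.8 and 100.2 CPM after Gnl3 siRNA. Its whole-cell levels were 70.4, 72.6 and 74.2 CPM, then 82.9 and 82.1 CPM, then 88.3 and 95.4 CPM. Klf6 stood in the order scramble, Nmd3, Gnl3 in both fractions with no overlap.

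**Figure D1:**
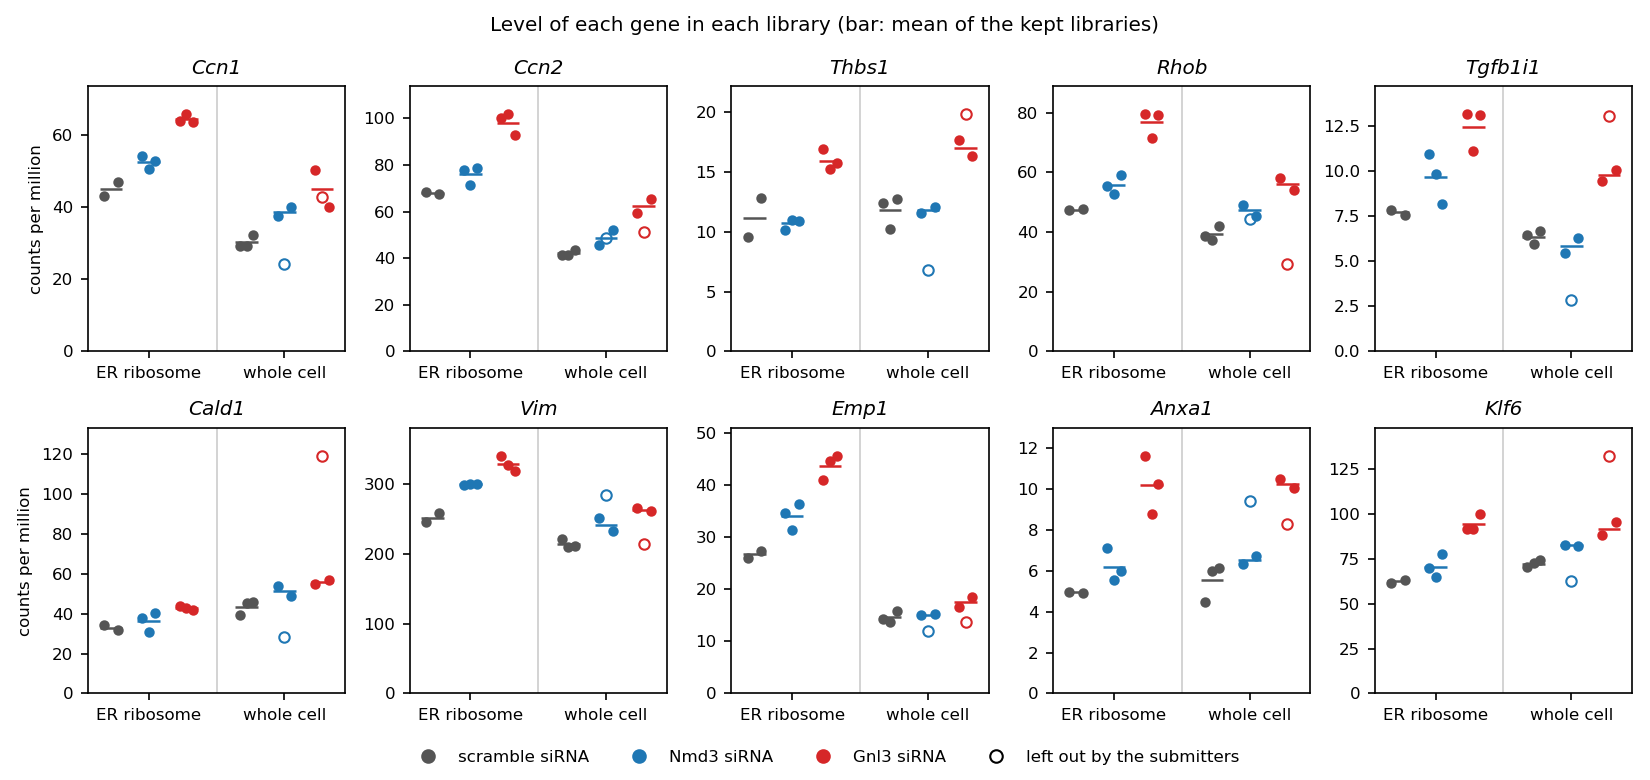
Each panel plots 1 of the 10 genes, with CPM on the vertical axis and the 6 groups of siRNA and fraction on the horizontal axis. Each filled point is 1 of the 15 libraries kept, and each bar is the group mean of these. Open circles are the 2 whole-cell libraries that the submitters left out. The filled Gnl3 siRNA points lie above the scramble points of the same fraction for all 10 genes, as in Vim on the ER (318 to 339 against 246 and 258 CPM). The open Gnl3 siRNA circle lies under the scramble points for Rhob and within their range for Vim and Emp1.

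The difference after Gnl3 siRNA is given as a description, because it chose the genes. On ER ribosomes the log2 difference from scramble ran from 0.36 (SE 0.09) for Cald1 to 1.03 (SE 0.17) for Anxa1, with a median of 0.55 over the 10 genes and -0.002 over all 17632 genes fitted. The other ER values were 0.37 (SE 0.05) for Vim, 0.50 (SE 0.13) for Thbs1, 0.50 (SE 0.07) for Ccn1 and 0.52 (SE 0.06) for Ccn2. Klf6 was higher by 0.59 (SE 0.07), Tgfb1i1 by 0.67 (SE 0.14), Rhob by 0.68 (SE 0.07) and Emp1 by 0.70 (SE 0.08). The ER differences were thus modest, between 1.29-fold and 2.04-fold. In whole-cell RNA the median was 0.52 over the 10 genes and -0.004 over 17490 genes. Anxa1 again had the largest value, 0.88 (SE 0.16), followed by Tgfb1i1 at 0.62 (SE 0.15), Ccn1 and Ccn2 at 0.57 (SE 0.09 and 0.08), Thbs1 at 0.53 (SE 0.12) and Rhob at 0.51 (SE 0.08). Cald1 at 0.36 (SE 0.08), Klf6 at 0.35 (SE 0.07), Vim at 0.30 (SE 0.06) and Emp1 at 0.27 (SE 0.11) were the smallest. With edgeR's quasi-likelihood test, and an adjusted p under 0.05 as the threshold for a call, 10 of the 10 were called higher on the ER, where 2.68% of all genes were called, and 9 of the 10 in whole-cell RNA (all but Emp1), where 0.812% were. DESeq2 called 10 on the ER and 7 in whole-cell RNA, where it called 333 and 109 of all genes. With a replicate block edgeR called 8 and 8, where it called 258 and 120 of all genes. Every Gnl3 siRNA library lay above every scramble library for 10 of 10 genes in each fraction, an arrangement that 19.4% of all genes showed on the ER and 13% in whole-cell RNA. With 1 Gnl3 siRNA library left out, 8 of the genes were called on the ER, where 211 to 299 of all genes were. Without scramble ER replicate 2 or 3, which leaves 1 scramble library, fewer of the 10 and of all genes were called. The median of the 10 was then 0.56 and 0.62. In whole-cell RNA 5 were called without scramble replicate 1, where 48 of all genes were. Without scramble replicate 2 or 3, 7 were called, where 66 of all genes were. Without Gnl3 replicate 1 or 2, which leaves 1 Gnl3 library, calls were fewer among the 10 and over all genes. The median of the 10 was then 0.43 and 0.53.

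The Nmd3 siRNA libraries are taken as not used to choose the genes, although this is not recorded. The scramble libraries they are compared with are taken as used. A gene that was low in those scramble libraries by chance would also read higher after Nmd3 siRNA, so values over all genes are not what no change would give for genes so chosen. Vim and Emp1 rose on ER ribosomes, and no other gene of the 10 passed in either fraction. On the ER, where 1.17% of all genes were called (0.652% higher), Vim rose by 0.26 on the log2 scale (SE 0.05, edgeR adjusted p = 0.00191) and Emp1 by 0.36 (SE 0.08, edgeR adjusted p = 0.0273), both higher in 3 of 3 libraries. The log2 difference was positive for 9 of the 10 genes, with a median of 0.23 (0.002 over all genes), and because of the shared scramble libraries nothing is read from the count or the median. The nearest to the threshold were Rhob at 0.24 (SE 0.07, edgeR adjusted p = 0.0973) and Ccn1 at 0.23 (SE 0.07, edgeR adjusted p = 0.112). Klf6 at 0.19, Ccn2 at 0.17, Cald1 at 0.14, Tgfb1i1 at 0.33 (SE 0.15) and Anxa1 at 0.33 (SE 0.17) did not pass either. Thbs1 was the exception in sign, at -0.05 with a 95% interval of -0.32 to 0.22. Without adjustment 7 of the 10 genes and 11.6% of all genes had a p under 0.05. Every Nmd3 siRNA library lay above both scramble libraries for 8 of the 10 genes on the ER (not Thbs1 or Cald1), as for 12.7% of all genes.

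These 2 calls rested on few libraries. With scramble ER replicate 2 or replicate 3 left out, which leaves 1 scramble library, both calls were lost. Calls over all genes also fell in those fits. The log2 values were then 0.23 and 0.28 for Vim and 0.33 and 0.39 for Emp1. Emp1 also lost its call without Nmd3 ER replicate 1 (edgeR adjusted p = 0.0517) or replicate 3 (edgeR adjusted p = 0.0819). Without Nmd3 ER replicate 2, the library in which Gnl3 stood apart, 5 of the 10 were called, with Ccn1 (edgeR adjusted p = 0.0469), Rhob (0.0175) and Klf6 (0.0245) added. The calls over all genes also rose in that fit, to 366 of 17549 from 206 of 17632.

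In whole-cell RNA 0 of the 10 genes were called after Nmd3 siRNA with edgeR or with DESeq2, where edgeR called 0.166% of all genes (0.0629% higher). The median log2 difference was 0.19, with 8 of 10 values positive (-0.001 over all genes), and the same limit applies. Ccn1 had the largest value, 0.35 (SE 0.09, edgeR adjusted p = 0.159), and passed only when genes with low counts were kept in the fit (edgeR adjusted p = 0.033). Rhob followed at 0.25 (SE 0.08), Cald1 and Anxa1 were at 0.22, Ccn2 at 0.20, Klf6 at 0.18 and Vim at 0.17. Emp1, which rose on the ER, was at 0.04 with a 95% interval of -0.19 to 0.27, Thbs1 at -0.01 and Tgfb1i1 at -0.13. At the same time 6 of the 10 genes and 9.69% of all genes had an unadjusted p under 0.05. Without Nmd3 whole-cell replicate 3, which leaves 1 Nmd3 library, the values of the 10 genes ran from -0.25 to 0.30, with a median of 0.17. Every Nmd3 siRNA library lay above every scramble library for 7 of the 10 genes (not Thbs1, Tgfb1i1 or Emp1), as for 12.6% of all genes.

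**Figure D2:**
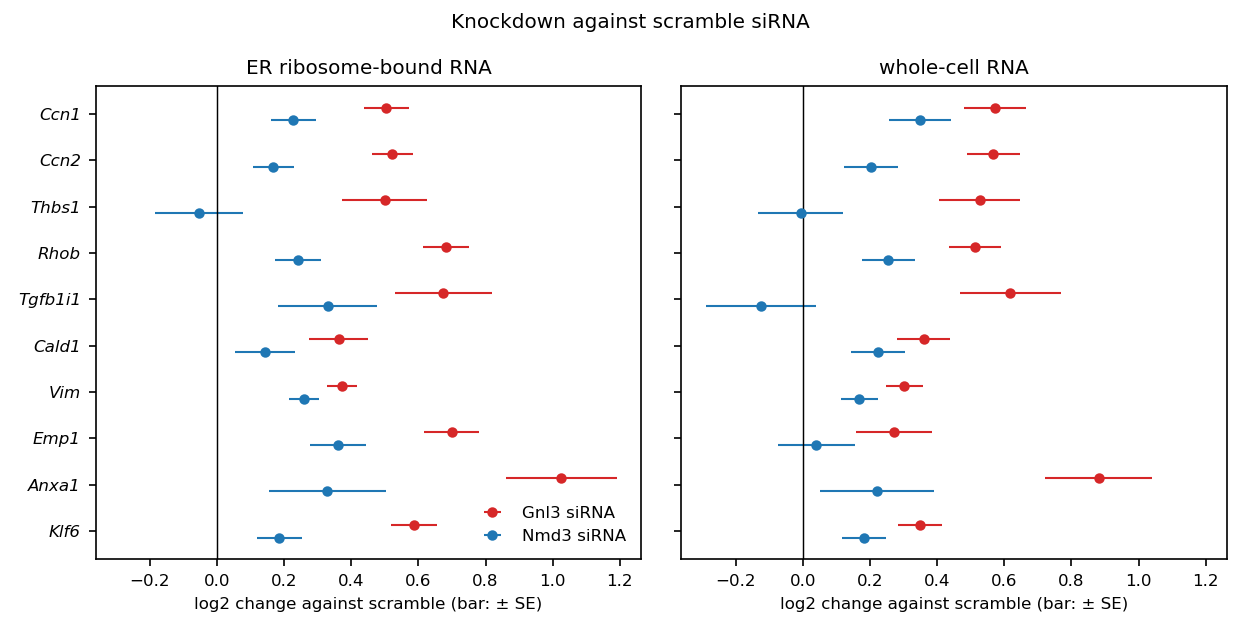
Log2 difference from scramble siRNA for the 10 genes on ER ribosomes and in whole-cell RNA, with Gnl3 siRNA and Nmd3 siRNA as separate points and bars of 1 SE on either side. The Gnl3 siRNA values run from 0.27 to 1.03 and the Nmd3 siRNA values from -0.13 to 0.36, and within each gene and fraction the Gnl3 siRNA value lies to the right.

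Both knockdowns are measured against the same scramble libraries, so the levels themselves were set side by side. The Gnl3 siRNA mean was the highest of the 3 siRNAs for 10 of the 10 genes in both fractions. The order Gnl3, Nmd3, scramble held for 9 of 10 genes on the ER (not Thbs1) and for 8 of 10 in whole-cell RNA (not Thbs1 or Tgfb1i1). Every Gnl3 siRNA library lay above every Nmd3 siRNA library for 10 of 10 genes on the ER, as for 10.8% of all genes, and for 9 of 10 in whole-cell RNA (not Ccn1), as for 17.1%. The genes were chosen for being high after Gnl3 siRNA, so these counts are descriptions.

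Other genes of the 2 routes were read from lists that do not contain the 10. The 10 were chosen for being high after Gnl3 siRNA, so the size of their change is not compared with that of the lists. Of 16 measured YAP/TEAD target genes, 2 rose on ER ribosomes after Gnl3 siRNA, Ptpn14 by 0.37 on the log2 scale and Igfbp3 by 0.36, and 14 did not pass, with a list median of 0.12. In whole-cell RNA 1 of the 16 rose, Ptpn14 (0.40), a phosphatase that binds YAP, with a median of 0.04. After Nmd3 siRNA Igfbp3, which binds insulin-like growth factors, rose on the ER (0.42), 15 of 16 did not pass, and the median was -0.01. Of the 21 components of the Hippo route and TEAD factors, 0 were called by edgeR or DESeq2 after Gnl3 siRNA in either fraction, 3 had an unadjusted edgeR p under 0.05 in each, and the list medians were -0.02 and -0.01. Ajuba, a LIM protein that restrains the Hippo kinases, fell by 0.19 on the ER after Nmd3 siRNA (edgeR adjusted p = 0.0472). Counts of calls, here and in the lists and markers below, are to be read against the shares of all genes. On the ER 1.51% of all genes were called higher and 1.17% lower after Gnl3 siRNA, and 0.652% and 0.516% after Nmd3 siRNA. In whole-cell RNA the shares were 0.515% and 0.297% after Gnl3 siRNA, and 0.0629% and 0.103% after Nmd3 siRNA. After Gnl3 siRNA 7 of the 16 targets had an unadjusted p under 0.05 on the ER, all of them higher, and 1 had one in whole-cell RNA. The share of all genes with an unadjusted p under 0.05 was not counted for the Gnl3 siRNA comparisons. Nothing is therefore read from such counts after Gnl3 siRNA, here or below.

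Among 24 measured SRF/MRTF targets of the cytoskeleton, Csrp1 rose (0.27) and Lima1 fell (-0.50) on the ER after Gnl3 siRNA, 22 did not pass, and the median was 0.11. On the ER 12 of the 24 had an unadjusted p under 0.05, 9 of them higher. In whole-cell RNA 0 of the 24 were called by edgeR or DESeq2, 7 had an unadjusted p under 0.05, and the median was 0.09. After Nmd3 siRNA Cnn3 (calponin) rose by 0.17 and Lima1, an actin-bundling LIM protein, fell by 0.50 on the ER. Btg2, an antiproliferative target of p53, was the 1 gene called of 22 immediate-early genes, at 0.59 on the ER (SE 0.07, edgeR adjusted p = 1.02e-05) and 0.44 in whole-cell RNA (SE 0.08, edgeR adjusted p = 0.00257) after Gnl3 siRNA. The medians of the immediate-early list were 0.12 and 0.11 there, and -0.05 and 0.01 after Nmd3 siRNA.

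Of 23 integrins and focal adhesion proteins, Parva, which links integrins to actin, rose by 0.67 and Tln1 (talin) by 0.23 on the ER after Gnl3 siRNA, with a list median of 0.13. Itga3 rose by 0.23 in whole-cell RNA. After Nmd3 siRNA 0 of the 23 were called by edgeR or DESeq2 in either fraction, and 5 on the ER and 3 in whole-cell RNA had an unadjusted p under 0.05. Of all genes 11.6% on the ER and 9.69% in whole-cell RNA had one. The family relatives of the 10 genes held the most calls, 5 of 29 on the ER after Gnl3 siRNA, all higher, where 1.51% of all genes were called higher. They included Emp2 (0.69), Anxa3 (0.65), Anxa5 (0.54) and Anxa2 (0.52), with a list median of 0.13. Anxa2, an annexin that binds actin and membranes, also rose in whole-cell RNA after Gnl3 siRNA (0.47) and on the ER after Nmd3 siRNA (0.39), where it was the only one of the 29 relatives called. The other relative called in whole-cell RNA was Rhoc, at 0.27 after Gnl3 siRNA.

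Few of these calls held with any 1 library left out. Of the 12 genes of the lists described here that were called on the ER after Gnl3 siRNA, 3 kept the call in each of the 5 fits that leave out 1 library: Anxa2, Btg2 and Ptpn14. Of the 5 called in whole-cell RNA 1 did, Ptpn14, and of the 5 called on the ER after Nmd3 siRNA, 0 did. DESeq2 did not call Ajuba or Cnn3 on the ER after Nmd3 siRNA. After Gnl3 siRNA it did not call Tln1, Emp2 or Emp3 on the ER, or Rhoc in whole-cell RNA. Anxa2, Ptpn14, Tln1 and Cnn3 overlap exons of a gene on the opposite strand. Lima1, Igfbp3 and Anxa2 were called on the ER in both knockdowns, which share the scramble libraries.

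**Figure D3:**
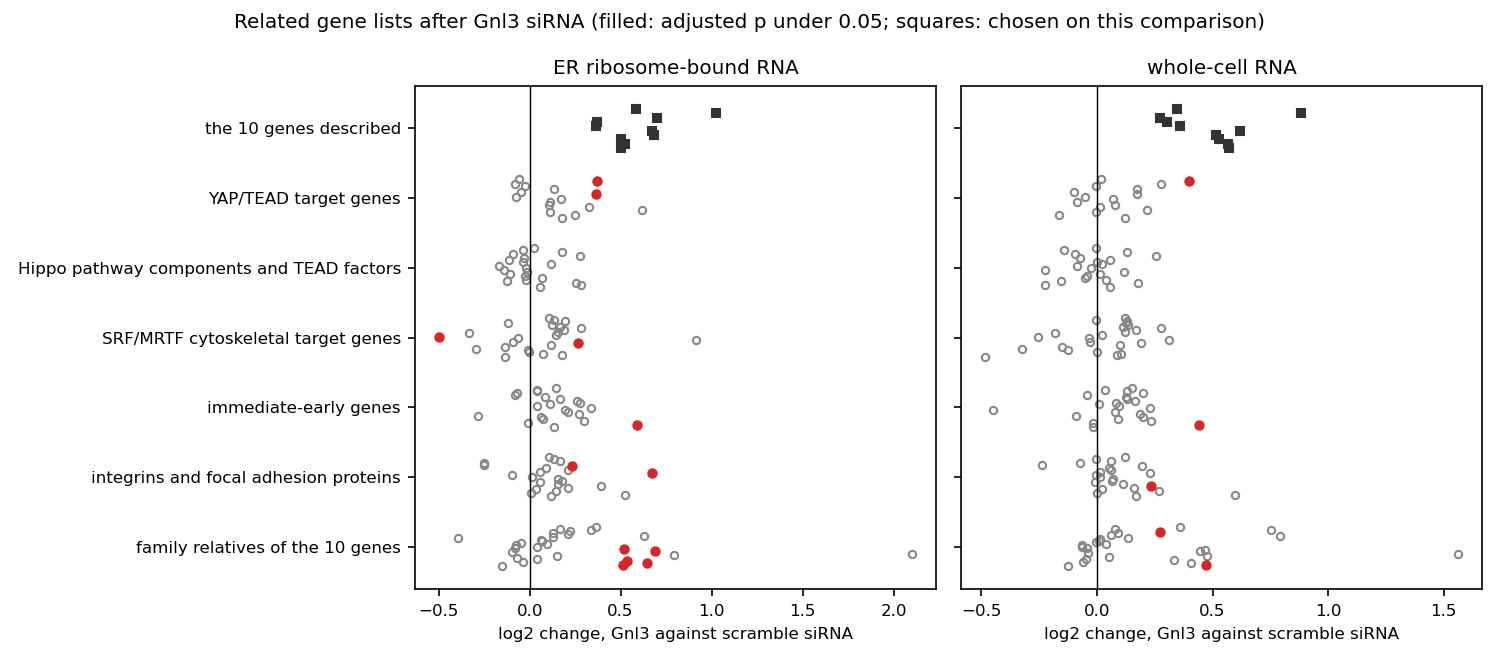
Each row is a gene list and each point 1 gene's log2 difference from scramble siRNA after Gnl3 siRNA, on ER ribosomes and in whole-cell RNA; filled red points are genes called with edgeR and black squares the 10 genes, which were chosen on this comparison. The 6 lists shown have medians between -0.02 and 0.13. The medians of the 10 genes, 0.55 and 0.52, reflect that choice and are not compared with those of the lists.

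Markers of cell types were read in the same fits. Of 12 pluripotency markers, Nanog (-0.25), Dppa5a (-0.21), Esrrb (-0.20) and Zfp42 (-0.17) fell on the ER after Gnl3 siRNA, where 1.17% of all genes were called lower. None of these calls was kept in each of the 5 fits that leave out 1 library. In whole-cell RNA 0 were called by edgeR or DESeq2 and 4 had an unadjusted p under 0.05. The values of 11 of the 12 were negative in each fraction. Their summed level was 10458 to 10742 CPM on the ER with scramble, 10104 to 10752 CPM with Nmd3 siRNA and 9654 to 10033 CPM with Gnl3 siRNA. In whole-cell RNA the sums were 7516 to 7712, 7737 to 7993 and 7013 to 7379 CPM in that order. The pluripotency sum was thus lowest in the Gnl3 siRNA libraries, where the 10 genes were highest. The 12 fibroblast and feeder markers, which are markers of cells rich in Vim, Ccn1 and Thbs1, had 0 calls with edgeR or DESeq2 in any knockdown comparison. Only 4 of them on the ER and 5 in whole-cell RNA had enough counts to be tested, of which 2 had an unadjusted p under 0.05 on the ER after Gnl3 siRNA. Their sum on the ER was 39.6 to 41.1 CPM with scramble, 43.9 to 47.4 CPM with Nmd3 siRNA and 45.9 to 48.5 CPM with Gnl3 siRNA, and in whole-cell RNA 22.1 to 24.8, 19.2 to 21.6 and 24.1 to 24.8 CPM. Fap was at 0 in all 15 libraries, Lum, Postn and Prrx1 in 13 each and Dcn in 11. Col1a1 was at 1.74 to 6.68 CPM and Thy1, the largest part of the sum, at 8.18 to 33.2 CPM.

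The 12 markers of primitive and parietal endoderm summed to 457 to 469 CPM on the ER with scramble, 509 to 555 CPM with Nmd3 siRNA and 534 to 569 CPM with Gnl3 siRNA. The largest part of this sum was 1 gene, Sparc, at 178 to 496 CPM across the 15 libraries. Col4a1, a basement membrane collagen, rose by 0.49 and Sparc, a collagen-binding matrix protein, by 0.22 on the ER after Gnl3 siRNA, and Sparc by 0.21 after Nmd3 siRNA. The calls of Col4a1 and Sparc were not kept in every fit that leaves out 1 library. Col4a1 also shares exon sequence with Col4a2 on the opposite strand. In whole-cell RNA the endoderm sums were 268 to 278, 281 to 292 and 285 to 301 CPM. Among 7 endothelial markers Tek rose on the ER by 0.90 after Gnl3 siRNA and 0.67 after Nmd3 siRNA, and Emcn was at 0 in all 15 libraries. With each library left out in turn, Tek kept its call after Gnl3 siRNA and not after Nmd3 siRNA. The endothelial sum on the ER was 13.1 to 13.3, 17.5 to 21.4 and 21.6 to 27.5 CPM. Its largest part was Tek, at 7.72 to 21.2 CPM across the 15 libraries. The 8 markers of early mesoderm and mesenchyme had 0 calls with edgeR or DESeq2, with 2 to 3 of the 7 tested at an unadjusted p under 0.05 in each comparison. Their sum was 20.1 to 21.0 CPM with scramble, 21.9 to 24.1 CPM with Nmd3 siRNA and 25.2 to 27.2 CPM with Gnl3 siRNA on the ER, and 23.5 to 25.5, 26.9 to 29.0 and 28.9 to 30.2 CPM in whole-cell RNA. The 8 trophoblast markers had 0 calls with edgeR or DESeq2, with 1 to 2 of the 7 tested at an unadjusted p under 0.05. Their sum was 119 to 121 CPM on the ER with scramble, 108 to 113 CPM with Nmd3 siRNA and 106 to 119 CPM with Gnl3 siRNA. Tfap2c, the largest part of it, was at 78.6 to 105 CPM across the 15 libraries. The part of other cell types, or of a shift in stem cell state, in the levels of the 10 genes was not tested.

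The ratio of ER ribosome-bound to whole-cell RNA with Nmd3 siRNA compares no Gnl3 siRNA or scramble library. Those are the libraries on which the genes are taken to have been chosen. The ratio with scramble siRNA is taken from the scramble libraries used in that choice. The test of whether the ratio moved with Nmd3 siRNA uses those libraries too. The limit given above for shared scramble libraries therefore applies to both. Messages for secreted and membrane proteins are translated on ribosomes docked at the ER, while messages for cytosolic proteins are mostly translated elsewhere. Emp1 was the most ER-enriched of the 10, by 0.84 on the log2 scale with scramble siRNA (SE 0.10, edgeR adjusted p = 2.8e-09) and 1.16 with Nmd3 siRNA (SE 0.10, edgeR adjusted p = 2.26e-12). Ccn2 was enriched by 0.66 (SE 0.07, edgeR adjusted p = 9.27e-10) and 0.63 (SE 0.07, edgeR adjusted p = 4.42e-09), and Ccn1 by 0.55 (SE 0.08) and 0.43 (SE 0.08). The secreted Thbs1 did not pass, at -0.10 with a 95% interval of -0.37 to 0.16 and at -0.15 with an interval of -0.42 to 0.12. Of the messages for cytosolic proteins, Vim (0.21 and 0.30) and Rhob (0.24 and 0.23) were enriched in both, with SE of 0.05 and 0.07. Cald1 was depleted on the ER, by -0.43 (SE 0.09, edgeR adjusted p = 0.000103) and -0.51 (SE 0.09, edgeR adjusted p = 5.49e-06), and so was Klf6, at -0.24 (SE 0.07, edgeR adjusted p = 0.00402) and -0.23 (SE 0.07, edgeR adjusted p = 0.00435). Anxa1 did not pass (-0.20 and -0.09).

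Tgfb1i1 differed between the siRNAs in whether it passed: 0.25 with scramble (SE 0.15, edgeR adjusted p = 0.185) and 0.70 with Nmd3 siRNA (SE 0.16, edgeR adjusted p = 0.000254). Counted over the genes, 5 of the 10 were called higher and 2 lower with scramble, where 50.3% of all genes were called, 25.1% higher and 25.3% lower. With Nmd3 siRNA 6 were called higher and 2 lower, where 50.1% of all genes were called, 24.5% higher and 25.6% lower. The share called lower was near that of all genes under both siRNAs. With Gnl3 siRNA, whose libraries helped to choose the genes, the values were 1.27 for Emp1, 0.61 for Ccn2, 0.48 for Ccn1, 0.41 for Rhob, 0.30 for Tgfb1i1, 0.28 for Vim, -0.43 for Cald1, -0.13 for Thbs1, -0.05 for Anxa1 and -0.003 for Klf6. There 5 were called higher and 1 lower, where 48.1% of all genes were called, 23.3% higher and 24.9% lower. The small ratios depended on single libraries. With scramble, Rhob was not called without ER replicate 2 (edgeR adjusted p = 0.0556) or ER replicate 3 (0.0573) and Vim not without ER replicate 3 (0.0508). With Nmd3 siRNA, Rhob was not called without whole-cell replicate 3 (edgeR adjusted p = 0.087).

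**Figure D4:**
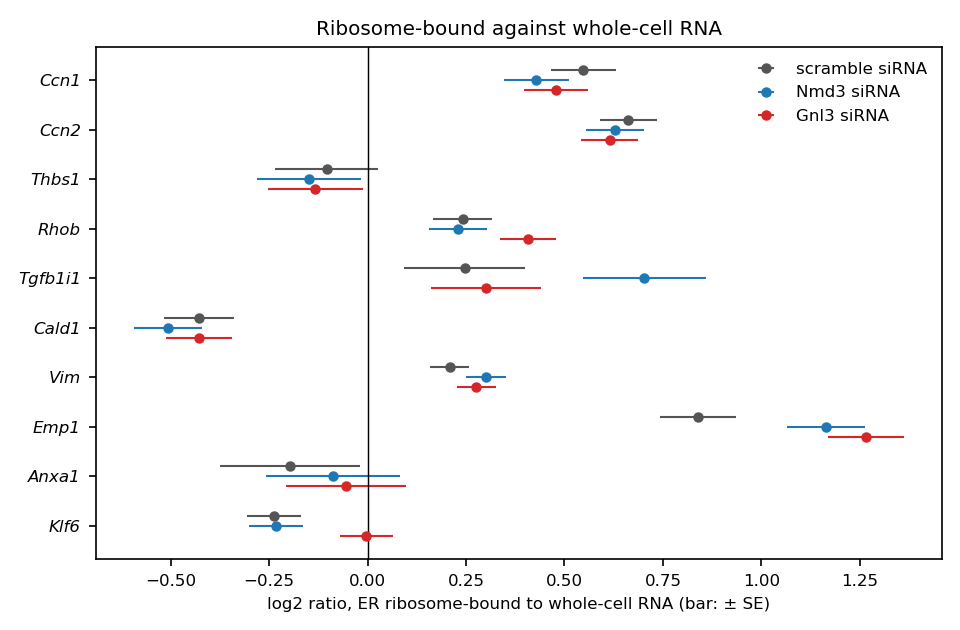
Log2 ratio of ER ribosome-bound to whole-cell RNA for the 10 genes under scramble, Nmd3 and Gnl3 siRNA, with bars of 1 SE on either side. Emp1 stands highest under each siRNA (0.84, 1.16 and 1.27) and Cald1 lowest (-0.43, -0.51 and -0.43).

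Whether the ratio itself moved with Nmd3 siRNA was tested by an interaction term, and 0 of the 10 genes, and 0% of all 18271 genes, were called with edgeR. DESeq2 called 0 of the 10 and 2 of all genes. At an unadjusted p under 0.05 edgeR gave 2 of the 10 genes and 5.9% of all genes. The 2 were Emp1, whose ratio was higher by 0.32 with Nmd3 siRNA (SE 0.14, 95% interval 0.04 to 0.61, edgeR adjusted p = 0.828), and Tgfb1i1, higher by 0.46 (SE 0.22, edgeR adjusted p = 0.828). The difference for Tgfb1i1 between the siRNAs was thus not established by the test of the difference. The other 8 values lay between -0.12 (Ccn1) and 0.11 (Anxa1). For Gnl3 siRNA, as a description, the change in the ratio ran from -0.07 (Ccn1) to 0.43 (Emp1, SE 0.14), with Klf6 at 0.24 (SE 0.10).

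With fractions centred to the same mean, the 10 genes followed one another across the 15 libraries. The 45 pairs of genes had Pearson r between 0.59 and 0.96, with a median of 0.84, and each gene's r with the mean profile ran from 0.86 (Thbs1) to 0.98 (Rhob). These values describe libraries that share siRNA groups and scaling, and the genes were chosen for 1 of those groups, so no p is given. Outside the 10, the profiles most like the mean, among genes with a mean of at least 10 CPM, were those of Perp (r = 0.97), Sdc4 (0.97), Btg2 (0.96), Plk2 (0.95) and Rb1 (0.95). Perp, a desmosomal membrane protein and p53 target, was at 93.7 ± 3.91 CPM (SD, n = 2) on scramble ER ribosomes, 115 ± 5.57 CPM (n = 3) after Nmd3 siRNA and 159 ± 7.06 CPM (n = 3) after Gnl3 siRNA. Sdc4, a heparan sulfate proteoglycan of focal adhesions, was at 125 ± 5.09, 129 ± 5.51 and 160 ± 2.42 CPM in the same groups. Both were picked for their likeness to the 10, so the order of their groups follows from that choice.

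The 2 whole-cell libraries that the submitters left out followed the kept libraries for some of the genes and not for others. The left-out Gnl3 library, replicate 3, lay above every scramble whole-cell library for 7 of the 10 genes, within the scramble range for Vim (214 CPM) and Emp1 (13.8 CPM), and under it for Rhob (29.4 CPM). It lay outside the range of the 2 kept Gnl3 libraries for 9 of the 10, 4 above and 5 under. Cald1 was at 119 CPM there against 54.9 and 56.9 CPM, and Klf6 at 132 CPM against 88.3 and 95.4 CPM. The left-out Nmd3 library, replicate 2, lay above every scramble whole-cell library for 4 genes, Ccn2 (48.5 CPM), Rhob (44.3 CPM), Vim (284 CPM) and Anxa1 (9.39 CPM), which the kept Nmd3 libraries also did. It lay under every scramble library for the other 6, Ccn1 (24.4 CPM), Thbs1 (6.80 CPM), Tgfb1i1 (2.85 CPM), Cald1 (28.4 CPM), Emp1 (12.1 CPM) and Klf6 (62.9 CPM). With these 2 libraries put back, 0 genes of the whole genome were called with edgeR after either siRNA in whole-cell RNA, and the median of the 10 genes after Gnl3 siRNA was 0.61. Rhob, Cald1, Vim and Klf6 then also lost their call in the ER to whole-cell ratio with scramble siRNA (edgeR adjusted p = 0.512, 0.39, 0.522 and 0.428) and with Nmd3 siRNA (0.757, 0.364, 0.901 and 0.322). Neither library is a scramble library, and the scramble ratios stayed near their earlier values, at 0.24, -0.43, 0.20 and -0.24. With Nmd3 siRNA they were 0.10, -0.38, 0.04 and -0.25. The spread between libraries shared by all genes (the common biological coefficient of variation) was 0.24 in that fit, against 0.06 without the 2 libraries.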

How the data were processed

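PolyA RNA was sequenced from biotin-marked ER ribosomes and from whole-cell lysate of a mouse embryonic stem cell line under 3 siRNAs, 17 libraries in all, of which 15 were used; the other 2 are marked in the labels as left out by the submitters. The deposited files hold raw read counts per gene, 1 library each, with no normalization by the authors. Per the submitters' processing notes, STAR 2.7.9a, HTSeq 0.11.2, DESeq2 and the build GRCm39 were used. The annotation release and the strand setting of the counting are not given in the sources used here. Lines that name no gene were left out of totals and tests (no feature 47.4% to 48.3% of a library's entries, not unique 5.11% to 6.95%, ambiguous 0.458% to 0.562%). Symbols for 52083 of 55416 IDs, and overlaps with genes on the opposite strand, came from GENCODE M21 (GRCm38), so no gene coordinates in GRCm39 are given. Promoters came from RefSeq (GRCm38.p6).

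Here the counts were tested with edgeR 4.0.16 (R 4.3.3): filterByExpr, TMM scaling and a robust quasi-likelihood fit, in 1 fit of the 8 ER libraries (17632 genes), 1 of the 7 whole-cell libraries (17490 genes) and, for ratios of ER to whole-cell RNA and their interaction with siRNA, 1 of all 15 (18271 genes). P-values were adjusted by the Benjamini-Hochberg method over all genes of the fit, with 0.05 as the threshold for a call. SE is the absolute log2 change divided by the square root of F. CPM uses the total of gene counts, without TMM. Intervals of 95% use the fit's degrees of freedom. The procedure was checked on counts simulated from the real means. Counting error weighs most on Anxa1, Tgfb1i1 and Thbs1, whose lowest libraries hold 71, 87 and 169 counts.

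The 10 genes and all gene lists were chosen with earlier results of these data known. Of the lists of related genes, 2 are not reported here. Named beside them are the 2 siRNA targets, from each list up to 3 genes per direction with the largest called change in each knockdown comparison, any list gene called in both knockdowns, and the 5 genes most alike: mean CPM of at least 10 and the highest Pearson r, over 15 libraries, of log2 CPM (prior count 3, centred in each fraction) with the mean standardised profile of the 10. Alternatives were the 2 left-out libraries put back, DESeq2 1.42.0, scaling by library totals, no filter on low counts, a replicate block, 1 fit of all libraries and each library left out in turn. By the series' design, ER and whole-cell RNA with the same siRNA and number come from the same lysate; deviations of such pairs from their group means had r of -0.0292 to 0.0202 over genes.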

Additional observations from a re-analysis of the deposited data

How the results depend on the processing

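Every alternative was run for each result it applies to; the left-out libraries do not enter the ER fit, and the single fit of 15 libraries was an alternative for the knockdown comparisons. Among the tested values of the 10 genes, DESeq2 and the single fit of 15 libraries changed no call and no direction, and scaling by library totals changed no call. Counts of genes called moved as follows. With the 2 left-out libraries put back, ER against whole-cell RNA gave 2353 genes with scramble, 2819 with Nmd3 and 4540 with Gnl3 siRNA, where 9197, 9152 and 8795 had been called, and both whole-cell knockdown comparisons gave 0; the interaction with Nmd3 siRNA then had the opposite sign for Thbs1 (0.067), Cald1 (0.049), Vim (-0.16), Anxa1 (-0.29) and Klf6 (-0.0062). With no filter on low counts, Nmd3 siRNA gave 407 genes on the ER and 115 in whole-cell RNA, in place of 206 and 29, and the interactions gave 14 (Nmd3) and 1 (Gnl3) in place of 0. The interaction with Nmd3 siRNA gave 2 genes with DESeq2 and 1 with library totals only; its value turned for Klf6 with library totals (-0.00894) and for Rhob with no filter (0.00092033). The cause of these moves was not tested.

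With a replicate block, the knockdown comparisons on the ER gave 258 (Gnl3) and 126 (Nmd3) genes and the interaction with Nmd3 siRNA 1, and the interaction turned for Ccn2 (0.019), Rhob (0.031) and Cald1 (0.091). The pairing by lysate of ER and whole-cell RNA changed no other call among the tested values of the 10 genes. Between siRNAs the numbers are shared labels only: deviations of same-numbered libraries of 1 fraction had r of -0.0525 to 0.0442.

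With 1 library left out, the genes called ranged from 70 to 299 (Gnl3, ER), 17 to 66 (Gnl3, whole-cell), 23 to 366 (Nmd3, ER), 8 to 1024 (Nmd3, whole-cell), 0 to 304 (interaction with Nmd3 siRNA), and 7056 to 8822 for the ER ratios. The lowest counts came without scramble ER replicate 2 (70) or 3 (23), without whole-cell replicate 1 of Gnl3 siRNA (17) and without that of Nmd3 siRNA (8), and the highest of the Nmd3 comparisons without Nmd3 ER replicate 2 (366) or Nmd3 whole-cell replicate 3 (1024 and 304). Where 1 library is left in an arm it is assumed to vary like the others. Thbs1 changed sign in 3 results: it ranged from -0.34 to 0.074 in the scramble ER ratio (without scramble ER replicates 3 and 2), from -0.25 to 0.16 after Nmd3 siRNA on the ER (without scramble ER replicates 2 and 3), and from -0.090 to 0.054 in whole-cell RNA. The interaction with Nmd3 siRNA changed sign for Ccn2 (-0.13 to 0.099), Rhob (-0.056 to 0.043), Cald1 (-0.15 to 0.024), Klf6 (-0.057 to 0.060) and Thbs1 (-0.23 to 0.19). Depth limits Anxa1 most, whose lowest library holds 71 counts.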
